A study of Homo sapiens with 6 samples.

Results

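The ribosome biogenesis and nucleolar factors described here are 50 genes, chosen by their symbols from the 28395 genes of the authors' deposited table comparing treated with control A375 cells, and all 50 were found in it. They encode the proteins of the small nucleolar ribonucleoproteins (snoRNPs), the factors of the small-subunit (SSU) processome, later assembly factors of the 40S and 60S subunits, and subunits and partners of RNA polymerase I. RNA-seq was performed on A375 cells, an established human melanoma line labelled as wild type, kept for 6 h with ozonated olive oil at 0.01% (OZO), which is olive oil that has been reacted with ozone, or with untreated olive oil at 0.01% as the control (OLO). Each group holds 3 libraries of the same line, so both groups received an oil at the same dose and for the same time. The study's text describes the A375 RNA-seq as independent experiments, while the labels do not say how the libraries of a group relate, and the p-values measure the spread between these libraries. The deposited table holds the comparison only, and values of single libraries were not used here.

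Ribosomes are built in the nucleolus. RNA polymerase I transcribes a long precursor rRNA, the SSU processome gathers on it and folds and cuts it, and snoRNPs guided by small nucleolar RNAs (snoRNAs) modify its bases and riboses. The precursors of the small (40S) and large (60S) subunits then mature along separate routes, and both are exported to the cytoplasm, where the last cleavage of the 40S rRNA takes place. Growing and dividing cells, melanoma cells among them, spend much of their transcription and translation on this pathway, and the transcription factor MYC is known for binding the promoters of many of its genes.

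To ask how OZO changed the mRNAs of this pathway, the fold changes of the 50 genes were collected (positive values are higher in OZO). At an adjusted p under 0.05 from the authors' limma-voom test, 3 factors rose, 8 fell and 39 were not called. The factors that rose were GNL3, NOB1 and WDR43, and those that fell were RRS1, UTP14A, LTV1, POLR1A, MYBBP1A, RRP1B, EBNA1BP2 and GNL3L. That is 6.00% of the factors higher, beside 3.98% of all genes in the table and 7.75% of the 13773 genes averaging at least 10 reads, and 16.0% lower, beside 3.06% and 5.89%. All 50 factors passed 10 reads, so the genes with at least 10 reads are the closer background. The share higher was thus near that background and the share lower was above it, a difference between shares that was not tested. That background is not matched for level. Of the 50 factors, 48 lay above its median level and 17 in its top 10%. The median standard error (SE) of the log2 fold change was 0.054 for the factors and 0.125 for that background. Small changes therefore pass the threshold more easily among the factors, and the shares are not those of equally well measured genes.

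The changes were small. Their folds ranged from 0.486 of the OLO level for RRS1 to 1.35 times the OLO level for NOB1, and RRS1 was the only factor past a 2-fold change. Over the 50 factors the median log2 fold change was −0.077, with 18 values above 0 and 32 below it, while the median was −0.0061 over the genes with at least 10 reads. It was 0.19 over all genes of the table, of which 7012 had no read in any library and carried a fold change of 0.33 that is set by library size alone. When the fold changes were centred on that median of all genes, 95.8% of the called factors were lower (1 higher and 23 lower) in place of 72.7%. The calls over all genes of the table shifted the same way, with 79.6% lower in place of 43.4%. Centred on the genes with at least 10 reads, the counts of called factors were 3 higher and 6 lower, beside 1163 and 840 over all genes.

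**Figure D1:**
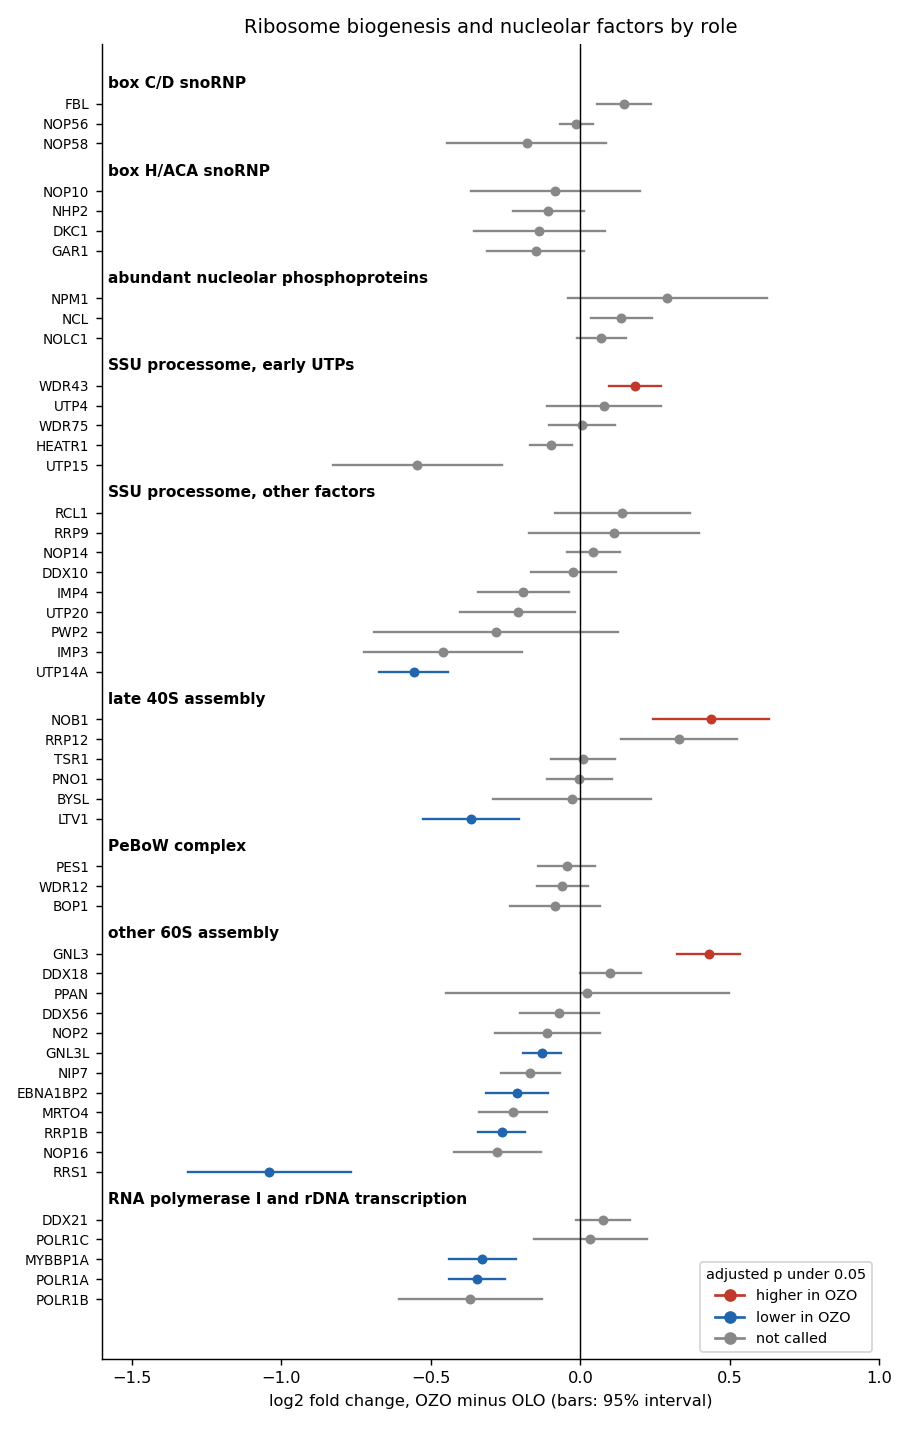
Log2 fold change of each of the 50 factors, OZO minus OLO, grouped by role, with bars for the 95% interval computed from the authors' t and p. RRS1 stands alone at −1.04, UTP14A and UTP15 follow near −0.55, and GNL3 and NOB1 stand highest at 0.43 and 0.44.

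The plot of fold changes by role also shows how narrow most intervals were. For 33 of the 39 factors that were not called, the whole 95% interval lay within 0.5 of 0 on the log2 scale, so for these a change larger than that was outside the interval. Among the 39, 8 factors had an adjusted p between 0.05 and 0.1. Of these, UTP15, IMP3, NOP16, NIP7, MRTO4 and POLR1B had fold changes below 0, and FBL and RRP12 above it. Before adjustment, 6 factors were higher and 17 were lower at a p under 0.05, beside 2486 higher and 2420 lower of the 13773 genes with at least 10 reads. As in any bulk measurement, fewer cells of a kind and less RNA per cell cannot be told apart.

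The depth was ample for these genes. From its lowest values, the libraries held 18409902 counted fragments on geometric average, and the implied mean reads per library ran from 110 for PPAN to 77842 for NPM1, with 40 of 50 factors over 1000. Implied reads here are back-calculated from the mean level and fold change of a gene, so they are approximate means on a log scale. The same average library size was used for OLO and OZO. The sizes differed between the groups, as the fold change of 0.33 of genes with no read shows. A pair of implied reads therefore compares levels at a common depth and does not give the reads counted in each group. Of the 23 markers used to check the label of the cells, 0 were called (0 also at an unadjusted p under 0.05). The melanocyte regulators MITF and SOX10 were present at 499 and 919 mean reads, whereas the other melanocyte markers ranged from 0 for TYR, through 4.74 for DCT, 5.75 for PMEL, 11.02 for TYRP1 and 36.6 for MLANA, to 50.98 for S100B. Among the keratinocyte markers KRT10 stood at 469 and KRT14 at 77.5, while KRT1, KRT5 and TP63 stood at 0, 1.56 and 2.79. The highest fibroblast marker was LUM at 87.6, with COL1A2 at 0.10, and the highest leukocyte marker was LYZ at 79.9, with CD3E at 0.10.

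A sequence feature shared by many of the factors lies at their promoters. The E-box CACGTG, which reads the same on both strands and is the best known binding sequence of MYC with its partner MAX, was searched in RefSeq promoter windows (GRCh38.p14) from 250 bases before to 50 bases after each annotated start. Windows were found for 43 factors. NOP58, NOLC1, RRP12, BOP1, RRP1B, RRS1 and DDX18 had none. At least 1 E-box was present in 22 of the 43 factors (51.2%), beside 12.5% of 10835 genes with at least 10 reads and 8.77% of 27305 genes with a window. Windows of 30 bases around the site are shown for every called factor that has one, followed by 3 factors that were not called, and the capitals mark the E-box.
GNL3: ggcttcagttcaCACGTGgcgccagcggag
WDR43: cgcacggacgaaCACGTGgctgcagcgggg
LTV1: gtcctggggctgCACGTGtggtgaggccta
MYBBP1A: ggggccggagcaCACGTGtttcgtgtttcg
EBNA1BP2, site before a start: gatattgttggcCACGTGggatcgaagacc
EBNA1BP2, site after a start: tggcgctggagcgattcggtggCACGTGga
UTP14A: accttgggcCACGTGgaaaccaggggccag
FBL: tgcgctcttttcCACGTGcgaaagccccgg
NOP14: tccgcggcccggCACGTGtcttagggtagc
PES1: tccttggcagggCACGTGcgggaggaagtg

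These windows lie at chr3:52686026-52686055 on the plus strand for GNL3, chr2:28894658-28894687 on the plus strand for WDR43, chr6:143843354-143843383 on the plus strand for LTV1 and chr17:4555340-4555369 on the minus strand for MYBBP1A. The pair of EBNA1BP2 windows lies at chr1:43172790-43172819 and chr1:43172241-43172270 on the minus strand. UTP14A has its window at chrX:129905914-129905943 on the plus strand, FBL at chr19:39846356-39846385 on the minus strand, NOP14 at chr4:2963374-2963403 on the minus strand and PES1 at chr22:30591880-30591909 on the minus strand. Most of these E-boxes sit just after the start of the gene. Counted with the annotated start as the first base, the site began at base 7 in GNL3, 4 in WDR43, 29 in LTV1, 28 in MYBBP1A, 7 in FBL, 16 in NOP14 and 14 in PES1. UTP14A differed, with its only site at −241.

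The place of the E-box also differed in the counts. Of the 25 E-box sites found in the factors, 64.0% began within the first 50 bases after a start, whereas 10.6% of 1639 sites in the genes with at least 10 reads did so. Counted by gene, 16 of 43 factors (37.2%) had such a site, beside 171 of 10835 genes (1.58%). The split by position was made after the sites were seen and was not tested.

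**Figure D2:**
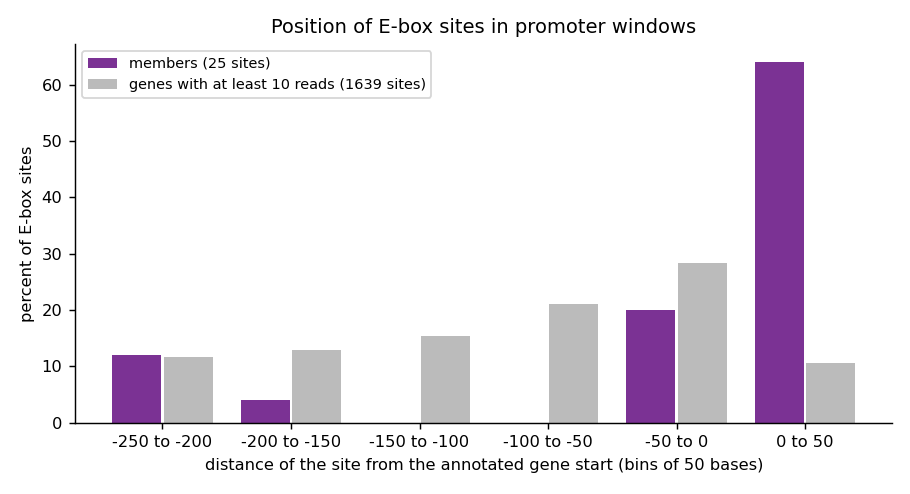
Percent of E-box sites in each bin of 50 bases along the promoter window, for the 25 sites of the factors and the 1639 sites of genes with at least 10 reads. The sites of the factors pile up in the bin after the start (64.0% beside 10.6%). Among the genes with at least 10 reads, which include the factors, the largest share lies in the bin before the start (28.4%).

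Rises and falls both occurred among the factors with an E-box and among those without one. RRS1 and RRP1B, which were both called lower, had no window and are in neither group. Of the 22 factors with one, 2 rose, 4 fell and 16 were not called, and the median log2 fold change was −0.065. Of the 21 with a window and no E-box, 1 rose, 2 fell and 18 were not called, with a median of −0.070. The shares were 9.09% higher and 18.2% lower with an E-box, and 4.76% and 9.52% without. Among genes averaging at least 10 reads they were 7.75% and 5.89%, and no difference between these shares was tested. MYC itself went from 155 to 65.8 implied reads, a log2 fold change of −1.23 with an SE of 0.28 and an adjusted p of 0.0713, so it was not called. Adjusted over the genes averaging at least 10 reads alone, its adjusted p was 0.0372, and any part of MYC in these results was not tested. Other motifs were searched on both strands. The ETS motif CCGGAAG was in 17 of 43 factors (39.5%) beside 21.9% of genes with at least 10 reads, and the GC box GGGCGG in 33 (76.7%) beside 75.5%. The palindromic NRF1 motif was in 4 (9.30%) beside 2.70%, and TGACNNNGC, the core of the antioxidant response element, in 5 (11.6%) beside 19.3%. ACGTG, which lies within every CACGTG, was in 27 (62.8%) beside 32.4%. These matches are descriptions of the letters in the windows.

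The roles described next hold 3 to 12 factors each, so a single call moves the share of a role far. The snoRNP proteins were not called in either class. Box C/D snoRNPs methylate riboses of the rRNA, with FBL as the methyltransferase and NOP56 and NOP58 as its scaffold. FBL had 4355 implied reads in OLO and 4816 in OZO, a log2 fold change of 0.15 with a 95% interval from 0.054 to 0.24 and an adjusted p of 0.0893. NOP56 had the narrowest interval of the 50 factors, with a fold change of −0.013 and limits of −0.068 and 0.041, whereas NOP58 at −0.18 was less certain, with limits of −0.44 and 0.085. Box H/ACA snoRNPs convert uridine to pseudouridine, with DKC1 as the enzyme and NHP2, NOP10 and GAR1 as its partners. All 4 had fold changes below 0, from −0.15 for GAR1 to −0.084 for NOP10, and none passed the test, the adjusted p running from 0.249 to 0.644.

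The abundant nucleolar phosphoproteins had fold changes above 0, and none was called. NPM1 (nucleophosmin), which forms the outer layer of the nucleolus, had by far the highest level per length of the 50 factors, at 3203 CPM per kilobase of transcript. Its implied reads were 70381 in OLO and 86093 in OZO, a log2 fold change of 0.29 whose 95% interval ran from −0.042 to 0.62. NPM1 has 49 named pseudogenes, and reads may be split between it and such copies. NCL (nucleolin), a chaperone of precursor rRNA, came next in level at 465 CPM per kilobase and had a fold change of 0.14 with limits of 0.036 and 0.24 and an adjusted p of 0.132. NOLC1 (Nopp140), which binds snoRNPs, stood at 0.070, with an adjusted p of 0.249.

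Among the early UTP proteins, which bind the precursor rRNA first and link its transcription to processing, 1 of 5 rose and none fell. That is 20.0% higher and 0% lower, beside 7.75% and 5.89% of genes averaging at least 10 reads. WDR43 rose from 3266 to 3706 implied reads, a log2 fold change of 0.18 with an SE of 0.033 and an adjusted p of 0.0441. UTP15 had the largest change in the group in size, from 1307 to 895 implied reads, with a fold change of −0.55, but its interval was wide (from −0.83 to −0.26) and its adjusted p was 0.0550. HEATR1, the largest of these proteins and the one with most reads, stood at −0.098 with limits of −0.17 and −0.027. WDR75 and UTP4 had values of 0.0056 and 0.079. Proteins of 1 complex thus had mRNA changes on both sides of 0.

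The other SSU processome factors had 1 member lower of 9 and none higher. Their shares were 11.1% lower and 0% higher, beside 5.89% and 7.75% of genes averaging at least 10 reads. UTP14A, the cofactor that switches on the helicase DHX37, fell from 2918 to 1984 implied reads, with a log2 fold change of −0.56, an SE of 0.045 and an adjusted p of 0.00855, the smallest among the 50 factors. A near-identical copy, UTP14C, exists elsewhere in the genome, and reads could be split between them. IMP3, a partner of MPP10 in the U3 snoRNP, had 564 implied reads in OLO and 410 in OZO, a fold change of −0.46 with an adjusted p of 0.0711. Its complex partner IMP4 stood at −0.19 with an adjusted p of 0.157. UTP20 and PWP2, which scaffold the processome, stood at −0.21 and −0.28, and the RNA helicase DDX10 at −0.023. The values above 0 were those of RCL1 at 0.14, the U3 protein RRP9 at 0.11 and NOP14 at 0.043, with intervals that included 0 in each case.

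In late 40S assembly, factors acting on the same particle moved in opposite directions. NOB1, the endonuclease that makes the final cut at the 3′ end of 18S rRNA, rose from 1236 to 1672 implied reads, with a log2 fold change of 0.44, an SE of 0.076 and an adjusted p of 0.0386. PNO1, the protein that holds NOB1 in place on the precursor, had 1498 and 1495 implied reads, a fold change of −0.0030 with limits of −0.11 and 0.11. LTV1, which guards the beak of the 40S precursor until its release, fell from 1603 to 1244 implied reads, with a fold change of −0.37, an SE of 0.063 and an adjusted p of 0.0375. RRP12, needed for nuclear export of the precursors, stood at 0.33 with an adjusted p of 0.0755. TSR1 and BYSL had values of 0.0090 and −0.028. NOB1 overlaps an annotated gene on the opposite strand, and LTV1 overlaps annotated genes on both strands.

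**Figure D3:**
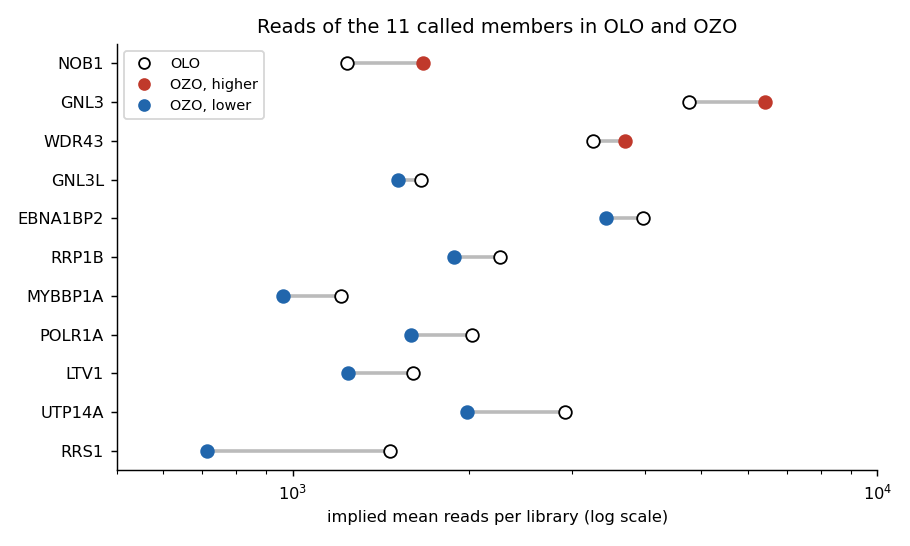
Implied mean reads per library of the 11 called factors in OLO (open circles) and OZO (filled circles), on a log scale. The same library size was used for both groups, so the pairs are levels at a common depth. RRS1 drops from 1465 to 712, while GNL3, the most read of them, goes from 4762 to 6411.

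The PeBoW complex, made of PES1, BOP1 and WDR12 and required for processing of the 60S rRNAs, was nearly flat. Its members had log2 fold changes of −0.046, −0.085 and −0.060, the limits of all 3 intervals lay between −0.23 and 0.065, and none was called. Subunits of this complex thus had values close to one another, unlike those of the early UTP proteins.

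The other 60S assembly factors, the largest of the role groups, had 4 members lower and 1 higher of 12. Their shares were 33.3% lower and 8.33% higher, beside 5.89% and 7.75% of genes averaging at least 10 reads. RRS1, which brings the 5S ribonucleoprotein into the 60S precursor, fell from 1465 to 712 implied reads, with a log2 fold change of −1.04, an SE of 0.11 and an adjusted p of 0.0123. The gene lies at chr8:66429014-66430733 on the plus strand (hg38) and has 1 exon, as only 1 other factor, IMP3, does. It overlaps an annotated gene on each strand, and whether strand was used in counting is not stated. RRP1B, a nucleolar protein of the 60S precursor, fell from 2264 to 1887 implied reads, with a fold change of −0.26, an SE of 0.031 and an adjusted p of 0.0154. EBNA1BP2, a partner of RRS1 in early 60S assembly, fell from 3979 to 3434, with a fold change of −0.21, an SE of 0.040 and an adjusted p of 0.0481.

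A pair of related GTPases of this group differed in direction. GNL3 (nucleostemin), a GTPase abundant in dividing and stem cells, rose from 4762 to 6411 implied reads, with a log2 fold change of 0.43, an SE of 0.041 and an adjusted p of 0.0110. GNL3L, its close relative, fell from 1656 to 1515, with a fold change of −0.13, an SE of 0.025 and an adjusted p of 0.0484. The call of GNL3L and that of EBNA1BP2 were lost when fold changes were centred on the genes with at least 10 reads. Per length, GNL3 was the more abundant mRNA, at 155 CPM per kilobase beside 9.91 for GNL3L.

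The remaining 60S factors were not called. MRTO4, which holds the place of the stalk protein on the 60S precursor, stood at −0.23 with an adjusted p of 0.0530, and NOP16 at −0.28 with an adjusted p of 0.0580. NIP7 stood at −0.17 with an adjusted p of 0.0744. The rRNA methyltransferase NOP2 and the helicases DDX56 and DDX18 had values of −0.11, −0.070 and 0.10, each with an interval that included 0. PPAN, the least abundant factor at 2.62 CPM per kilobase, had the widest interval of the set, from −0.45 to 0.50 around 0.024, and it shares sequence with the read-through gene PPAN-P2RY11.

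RNA polymerase I and its partners had 2 members lower of 5 and none higher. POLR1A, the largest subunit of the enzyme, fell from 2029 to 1596 implied reads, with a log2 fold change of −0.35, an SE of 0.036 and an adjusted p of 0.0123. POLR1B, the other subunit of the catalytic core, had 2153 implied reads in OLO and 1667 in OZO. Its fold change of −0.37 was as large as that of POLR1A, but its SE of 0.093 was larger and its adjusted p was 0.0977. POLR1C, a subunit shared with RNA polymerase III, stood at 0.033. MYBBP1A, a nucleolar protein that binds MYB and represses rRNA gene transcription, fell from 1208 to 963, with a fold change of −0.33, an SE of 0.043 and an adjusted p of 0.0206. The helicase DDX21, which binds both RNA polymerase I and snoRNAs, was highly read (14704 mean reads) and stood at 0.076 with limits of −0.014 and 0.17.

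The factors with most reads had fold changes mostly above 0. Of the 10 factors with most reads, each with at least 4579, 7 had fold changes above 0 and the median was 0.088. Of the other 40, 29 had fold changes below 0 and the median was −0.11. Across the 50 genes the fold change and the mean log2 CPM had a Spearman correlation of 0.31 and a Pearson correlation of 0.33, beside a Spearman correlation of 0.13 across the 13773 genes with at least 10 reads. Genes are not independent replicates and share the same libraries, so these are descriptions, and the split at 10 genes was made after the values were seen.

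**Figure D4:**
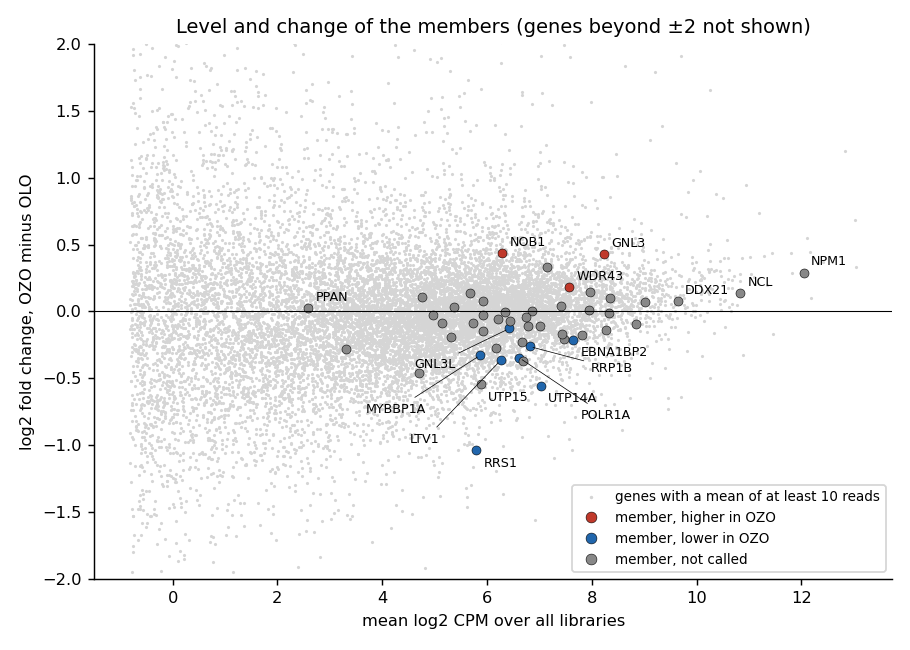
Log2 fold change against mean log2 CPM for the 50 factors (large points) and the genes with at least 10 reads (small points). NPM1, NCL and DDX21 lie at the right above 0, and the 8 lower calls lie between 5.5 and 8 on the horizontal axis.

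Some of these genes carry snoRNAs in their introns, from which the small RNAs are cut after splicing. By GENCODE 44, DKC1, GNL3, NCL, NOP56, NOP58, PPAN, TSR1 and WDR43 host at least 1 snoRNA in an intron of the canonical transcript. Of these 8, 2 rose (GNL3 and WDR43), none fell and the median log2 fold change was 0.016. Of the other 42 factors, 1 rose, 8 fell and the median was −0.091. The grouping was made after the values were seen. Over the protein-coding genes with at least 10 reads, 40 of 204 snoRNA hosts were higher and 6 lower (19.6% and 2.94%), beside 923 and 737 of 12228 genes that host none (7.55% and 6.03%). The 204 hosts include 28 cytosolic ribosomal protein genes, of which 19 were called higher. Of the 50 ribosomal protein genes that host none, 19 were called higher too, so hosting is not separated here from being a ribosomal protein gene. The difference between hosts and other genes was not tested, and the median SE was 0.074 for the hosts and 0.117 for the others.

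The hosted snoRNAs themselves were measured thinly. Of 27 annotated snoRNAs within these 8 genes, 20 have a row in the table, 5 averaged at least 10 reads and 2 were called. Both of these are named because they were called, after their values were seen. SNORD110, in an intron of NOP56, went from 31.0 to 90.5 implied reads, with a log2 fold change of 1.53, an SE of 0.15 and an adjusted p of 0.0117. SNORD19, in an intron of GNL3, went from 12.02 to 43.8, with a fold change of 1.82, an SE of 0.34 and an adjusted p of 0.0460. SNORD69, a second snoRNA of GNL3, had 7.59 and 15.4 implied reads and an adjusted p of 0.0514. They are shown because they are the hosted snoRNAs nearest to or past the threshold, and the capitals mark box C (TGATGA) and box D (CTGA), the elements bound by the box C/D proteins, where a search found them.
SNORD110: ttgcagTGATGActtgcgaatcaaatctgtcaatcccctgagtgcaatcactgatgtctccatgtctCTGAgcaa
SNORD69: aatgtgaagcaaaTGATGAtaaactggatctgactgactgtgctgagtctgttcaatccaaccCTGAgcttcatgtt
SNORD19: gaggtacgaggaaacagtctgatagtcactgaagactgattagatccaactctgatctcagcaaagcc

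SNORD110 lies at chr20:2654212-2654286, SNORD69 at chr3:52692736-52692812 and SNORD19 at chr3:52689248-52689315, all on the plus strand of GRCh38. SNORD110 and SNORD69 have both boxes near their ends, while SNORD19 has no exact box pair at its ends and is printed without capitals. Reads on a snoRNA row cannot be told apart from reads of the unspliced host intron, and the host mRNA of SNORD110 had a fold change of −0.013. Over all 111 snoRNA genes with at least 10 reads, 26 were called higher and none lower, with 60 higher and 2 lower at an unadjusted p under 0.05 and a median log2 fold change of 0.69.

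To see whether the rest of the pathway looked alike, 135 further ribosome biogenesis genes were counted, of which 131 had at least 10 reads. In this list 4 rose, 15 fell and 116 were not called, with a median log2 fold change of −0.052. That is 2.96% higher and 11.1% lower, beside the 7.75% and 5.89% of all genes averaging at least 10 reads, and these differences were not tested. The median SE was 0.072 in this list and 0.125 over those genes, so the shares are not matched for precision. By role, 1 SSU factor rose and 6 fell of 47, 2 LSU factors rose and 3 fell of 50, and 1 gene of the RNA polymerase I machinery rose and 3 fell of 14. Among genes for snoRNP assembly and rRNA modification none rose and 2 fell of 10, and in the RNA exosome, which trims rRNA ends, none rose and 1 fell of 14.

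Called genes of this list that act in rRNA gene transcription moved in both directions. POLR1G, an RNA polymerase I subunit, fell from 195 to 97.0 implied reads, with a log2 fold change of −1.005 at an adjusted p of 0.0160. UBTF, the factor that keeps rRNA genes open and active, fell from 2823 to 1746, with a fold change of −0.69 and an adjusted p of 0.0161. TAF1D, a subunit of the promoter selectivity factor SL1, went the other way, from 3087 to 6185, with a fold change of 1.002 and an adjusted p of 0.0247. POLR1G, UBTF and TAF1D all overlap genes on the opposite strand. Over the 14 genes of this role, 7 had fold changes above 0 and 7 below it, and at an unadjusted p under 0.05 4 were higher and 4 lower, so the role as a whole had no single direction.

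Among the SSU factors of the list, RIOK3, a kinase of the late 40S precursor, rose with a log2 fold change of 0.61 at an adjusted p of 0.00163. WDR3 and NOL6, processome components, fell with fold changes of −0.35 and −0.50. On the 60S side NOL8 fell with a fold change of −0.55 and PAK1IP1 with −0.40, while RBM28 rose with 0.31. The snoRNP assembly factors SHQ1, a chaperone of DKC1, and ZNHIT6, which acts in box C/D assembly, fell by 0.28 and 0.31 on the log2 scale. EXOSC4, a core exosome subunit, fell by 0.55.

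The structural proteins of the ribosome had fold changes mostly above 0. Of 78 cytosolic ribosomal protein genes, 38 were called higher (48.7%, beside 7.75% of genes averaging at least 10 reads) and none lower (beside 5.89%), with 62 higher and 0 lower at an unadjusted p under 0.05, and the median log2 fold change was 0.26. The 40S proteins had 14 of 32 and the 60S proteins 24 of 46 called higher. Ribosomal protein genes that host snoRNAs had 19 of 28 called higher, and those that host none had 19 of 50. Ribosomal protein mRNAs were also more abundant, with a median of 9.12 log2 CPM per kilobase beside 5.53 for the 50 factors. Their median SE was 0.052, beside 0.125 for genes averaging at least 10 reads, so that background is not matched for precision. Because processed pseudogenes of ribosomal proteins are common, no single member is described, and the difference between the lists was not tested.

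**Figure D5:**
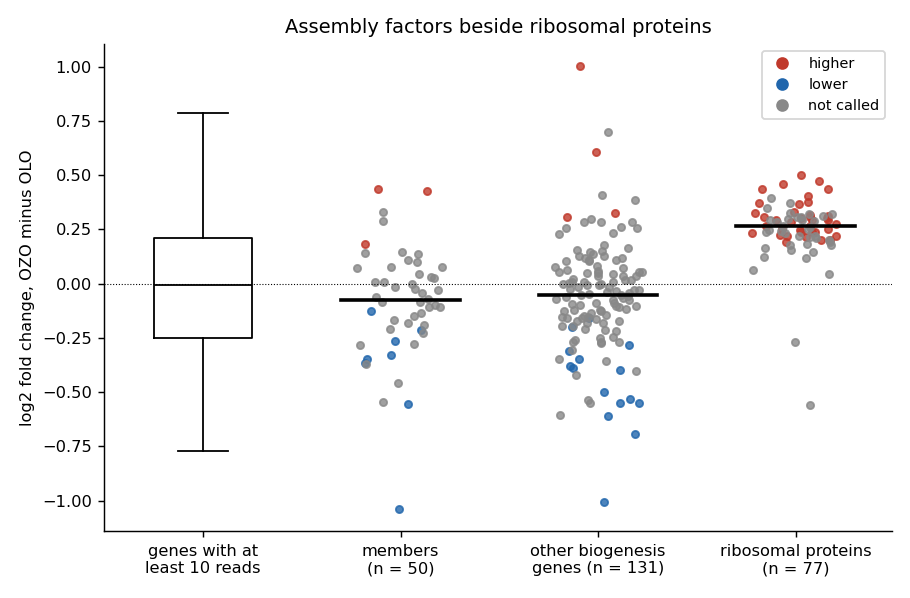
Log2 fold changes of the 50 factors, of 131 other biogenesis genes and of 77 ribosomal protein genes with at least 10 reads (points, with thick lines for the medians), beside all genes with at least 10 reads (box for the quartiles, whiskers from the 5th to the 95th percentile). Most ribosomal protein genes lie above 0, whereas the factors and the other biogenesis genes lie on both sides of 0 with more lower than higher calls.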

How the data were processed

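RNA was taken from A375 cells kept for 6 h with OLO or OZO, 3 libraries each, and sequenced as directional paired-end libraries. According to the study's methods, the authors aligned reads to hg38 with HISAT2 2.1.0, counted them with featureCounts 2.1.1 and compared groups with limma-voom 3.58.1. Normalization factors, count filters and use of strand are not given in the sources used here. On the log2 scale, the deposited table gives the fold change and the mean log2 CPM (voom adds 0.5 to each count). The deposited scores are the moderated t and the log odds, of which the latter was not used. The deposited p-value and adjusted p-value (Benjamini-Hochberg over all genes) are two-sided. These statistics are the authors' own, and the direction, treated minus control, was read as OZO minus OLO.

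From them the SE (fold change over t), the degrees of freedom (5.02 to 5.24), 95% intervals, library size and implied reads per group were computed (Python 3.11.15, scipy 1.17.1). Implied reads used that library size for both groups. This arithmetic was checked on simulated counts analysed with limma. In that simulation, unchanged genes made up a larger share of the calls than the adjusted p threshold states. It was a single draw with a fixed spread and set changes, unlike these data. The share for the calls here is therefore not known, and single calls near the threshold carry that doubt. Genes were called at an adjusted p under 0.05. CPM per kilobase used the canonical transcript of GENCODE 44, which also gave gene models, overlaps and intronic snoRNAs, and promoters came from RefSeq. A gene counted as holding a motif if any of its windows did, a choice made after the values were seen, as were the motifs other than the E-box named with it. The factors, their roles and the other lists were chosen with earlier results of these data known. All factors may be named, called ones with full statistics, and of the wider list up to 3 called genes per role with the smallest p. Alternative thresholds, adjustment over genes with at least 10 reads and other centres were tried.

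Of the factors, 25 overlap an annotated gene on the opposite strand and 12 have a named pseudogene. Among the called factors, the 25 include GNL3, NOB1, RRS1, UTP14A, LTV1, MYBBP1A and EBNA1BP2. LTV1 and RRS1 also overlap annotated genes on the same strand. All 50 had an Ensembl identifier that matched GENCODE.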

Additional observations from a re-analysis of the deposited data

How the results depend on the processing

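The counts of called factors, 3 higher and 8 lower, depended on the threshold. They were 0 higher and 1 lower (UTP14A) at an adjusted p under 0.01, 5 and 14 at an adjusted p under 0.1, and 0 and 1 (RRS1) when a 2-fold change was also required. Over all genes of the table the main counts were 1131 higher and 868 lower. In the same order, the other settings gave 201 and 70, 1696 and 1466, and 330 and 182. Adjusting over the genes with at least 10 reads, which are fewer tests, gave 5 higher and 13 lower, with FBL, UTP15, IMP3, RRP12, NOP16, NIP7 and MRTO4 added. Of all those genes, 1535 were then called higher and 1305 lower. Centring the fold changes on the median of those genes gave 3 and 6, with the calls of GNL3L and EBNA1BP2 lost and PNO1 moving from −0.0030 to 0.0031, and none of the other 47 factors or of the 12 named genes of the wider list changed its direction or its side of the threshold. Over all genes, that centre gave 1163 higher and 840 lower. Centring on the median of all genes gave 1 and 23 for the factors, beside 634 and 2481 over all genes. It moved the median of the factors from −0.077 to −0.26. The median of all genes is 0.19 and is drawn up by genes with no read. In the wider list, the 4 higher calls became 9 with adjustment over genes with at least 10 reads and 1 at an adjusted p under 0.01, and the 15 lower calls became 22 and 1. No paired analysis was possible because the deposited table holds the comparison only, and for the same reason no library was left out in turn.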
